A study of Homo sapiens with 8 samples.

Results

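The enzymes of glucose metabolism were followed as 43 genes in NB4 cells, a human acute promyelocytic leukaemia line that carries the PML/RARα fusion protein. The 43 genes were picked by name: 10 of upper glycolysis, 3 PFKFB enzymes, 6 of lower glycolysis, 2 lactate dehydrogenases, 3 of the pyruvate dehydrogenase step, 6 of the pentose phosphate pathway, 9 of the TCA cycle and its related dehydrogenases, and 4 of gluconeogenesis and glycogen. They are 43 of the 37526 gene names listed for all 8 RNA-seq libraries. All 43 were counted, and 41 passed the filter on low counts in each of the 4 pairwise comparisons.

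The 8 libraries fell into 4 conditions of 2 replicates each. The shNC and shKDM3B cells were untreated, and the shNC+ATRA and shKDM3B+ATRA cells had been given 1 µM all-trans retinoic acid (ATRA), for either 24 or 48 hours, without a label saying which time belongs to which library. All cells had been stably transduced with a lentiviral vector, pLVX-shRNA2-puro. The shKDM3B cells carried an shRNA against KDM3B, a demethylase of lysine 9 on histone H3. The control is labelled an empty vector and described in the study as a scrambled shRNA. The study used more than 1 shRNA against KDM3B, and the labels do not name the one sequenced. The study's methods speak of replicate RNA-Seq experiments without saying whether these were separate cultures, so the p-values measure the spread between libraries, which may be technical.

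Glycolysis splits glucose into pyruvate, and most of its steps can be run by several isoenzymes encoded by separate genes, which differ between tissues and in how they are regulated. Pyruvate is either reduced to lactate or enters the mitochondrial TCA cycle through pyruvate dehydrogenase, while the pentose phosphate pathway diverts glucose 6-phosphate to make NADPH and ribose. In neutrophils, the cells that ATRA-treated promyelocytic leukaemia cells come to resemble, NADPH from that pathway feeds the oxidase that makes reactive oxygen. Glycolytic genes are known targets of MYC, which binds the E-box CACGTG, and of hypoxia-inducible factors, which bind sites with the core ACGTG or GCGTG.

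The promoters of HK3, FBP1, HK2 and LDHA are shown because these genes carried the clearest changes, and they were chosen after the values were seen. Apart from PFKFB2, which had at most 2 counts in any untreated library, HK3 and FBP1 rose most with ATRA among the members. HK3 itself had 20 and 11 counts in shNC and 6 and 9 in shKDM3B. HK2 fell with ATRA, and LDHA was higher after the knockdown and fell with ATRA in the knockdown cells. Each sequence holds the 250 bases before the RefSeq start of the gene, read 5′ to 3′ on the strand of the gene (GRCh38.p14), and capitals mark the E-box CACGTG and the shorter cores ACGTG and GCGTG on either strand.
HK3, chr5:176899347-176899596, minus strand: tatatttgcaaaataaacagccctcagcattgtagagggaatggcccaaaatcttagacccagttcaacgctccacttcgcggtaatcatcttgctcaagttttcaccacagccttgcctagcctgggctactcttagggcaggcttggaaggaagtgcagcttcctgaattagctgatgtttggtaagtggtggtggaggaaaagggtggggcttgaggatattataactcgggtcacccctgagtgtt
FBP1, chr9:94639519-94639768, minus strand: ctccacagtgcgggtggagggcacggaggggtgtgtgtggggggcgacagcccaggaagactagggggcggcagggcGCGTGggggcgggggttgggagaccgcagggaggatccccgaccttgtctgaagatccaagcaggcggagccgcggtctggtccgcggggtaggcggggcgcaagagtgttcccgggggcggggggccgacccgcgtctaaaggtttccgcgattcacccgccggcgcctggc
HK2, chr2:74833877-74834126, plus strand: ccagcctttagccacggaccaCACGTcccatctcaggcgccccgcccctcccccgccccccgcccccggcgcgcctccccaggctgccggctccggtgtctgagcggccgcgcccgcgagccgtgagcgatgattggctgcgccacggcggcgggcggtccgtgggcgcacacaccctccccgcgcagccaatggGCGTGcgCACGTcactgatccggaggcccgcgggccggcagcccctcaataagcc
LDHA, chr11:18394313-18394562, plus strand: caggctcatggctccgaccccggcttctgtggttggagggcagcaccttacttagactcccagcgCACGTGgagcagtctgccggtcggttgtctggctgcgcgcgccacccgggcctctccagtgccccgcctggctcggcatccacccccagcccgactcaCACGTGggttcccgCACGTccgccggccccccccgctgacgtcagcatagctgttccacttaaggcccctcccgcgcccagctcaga
The windows of HK3 and HK2 end at the base before the GENCODE v44 start of the gene, whereas that of FBP1 lies inside the GENCODE span of the gene, which starts further upstream. The last bases of the LDHA window reach into its GENCODE span. The HK3 window held none of the motifs, and that of FBP1 held 1 GCGTG. The HK2 window held 2 matches to ACGTG and 1 to GCGTG. The LDHA window held 5 matches to ACGTG, which include both strands of 2 CACGTG sites, since ACGTG lies within CACGTG. Of the 41 members with a RefSeq promoter, 4 (9.76%) held CACGTG, 11 (26.8%) held ACGTG and 16 (39%) held GCGTG in this window. Of all 27305 promoters of that length, 6.49% held CACGTG, 18.7% held ACGTG and 31.9% held GCGTG. The members with CACGTG were ALDOC, GAPDH, LDHA and PDHB. These are matches of letters, and binding was not measured here.

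KDM3B, the target of the shRNA, was at 187 and 188 CPM (counts scaled to the size of the library) in shNC and 76.3 and 86.2 CPM in shKDM3B. With ATRA it was at 196 and 121 CPM in shNC+ATRA and 52.5 and 57.4 CPM in shKDM3B+ATRA. Both knockdown groups were below both control groups, with a log2 fold change of -1.21 ± 0.148 (SE) without ATRA and -1.53 ± 0.29 (SE) with it. In the quasi-likelihood test of edgeR, with p-values adjusted over all genes by the Benjamini-Hochberg method, these had an adjusted p of 0.068 and 0.502, and in DESeq2 they had an adjusted p of 5.8e-08 and 0.000701. With ATRA the unadjusted call of edgeR was lost without either shKDM3B+ATRA library.

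The libraries held 9708739 to 33017787 counts each, of which the 43 genes took 2.08 to 2.81%. The share of uniquely aligned pairs that HTSeq, the counting tool, assigned to no gene was 8.49 to 9.62% in the untreated libraries and in shNC+ATRA replicate 1, but 50 to 51.4% in shNC+ATRA replicate 2 and both shKDM3B+ATRA libraries. The share it found ambiguous between genes was 3.91 to 4.31% in the former and 2.39 to 2.57% in the latter. Where counting uses strand, pairs on the other strand of a gene are also assigned to no gene, and whether these 3 libraries were counted with another strand setting was not tested. Thus the 2 shNC+ATRA replicates were not alike. In shKDM3B cells both ATRA libraries were of the one kind and both untreated libraries of the other, so that ATRA and this split of the libraries cannot be told apart there. Knockdown under ATRA and the interaction shared this split in part, as only shNC+ATRA held both kinds. Without shNC+ATRA replicate 2, neither can be told apart from the split. Without shNC+ATRA replicate 1, all libraries compared for knockdown under ATRA were of the same kind. Where a library was left out, its group kept 1 library, which was assumed to vary like the libraries of the other groups. MPO (616 to 9520 CPM) and CD33 marked the cells as myeloid, whereas the promyelocyte granule genes ELANE, PRTN3 and AZU1 did not exceed 1.47 CPM. MPO, a peroxidase made by promyelocytes, was at 4280 and 5340 CPM in shNC, 8340 and 9520 in shKDM3B, 730 and 616 in shNC+ATRA, and 3130 and 2220 in shKDM3B+ATRA. It was called lower with ATRA in both cell populations (log2 fold change of -2.81 in shNC and -1.69 in shKDM3B) and higher with knockdown in both states (0.89 without ATRA and 1.99 with it). The summed CPM of 3 granulocytic genes (ITGAM, CYBB and NCF1) was 353 to 375 in shNC, 195 to 207 in shKDM3B, 2920 to 3160 in shNC+ATRA and 1310 to 1600 in shKDM3B+ATRA. The summed CPM of 5 lymphoid markers was 4.21 to 25.6 with MS4A1 at 0, that of 4 erythroid markers at most 0.737 with HBB at 0, and that of 4 epithelial markers 17.9 to 25.2.

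ATRA changed particular isoenzymes and steps, while genes such as GAPDH, PGK1, ENO1 and CS were called in no comparison by edgeR's test. In shNC cells, 10 of 43 members were called higher (HK3, PFKFB2, PFKFB3, PGAM1, PKM, PGD, TKT, IDH1, IDH3A and FBP1) and 3 lower (HK2, ENO2 and PDK1). Calls here and below are those of edgeR's quasi-likelihood test over all libraries of a comparison, unless another test or a left-out library is named. A gene was called at an unadjusted P under 0.05 with a fold change of at least 1.5, a rule that 15.0% of all 12429 genes tested passed upward and 10.8% downward. The same 10 and 3 members, and ALDOC as lower, were called without shNC+ATRA replicate 2, when every library had a like share of pairs assigned to no gene, and 13.7% and 11.8% of all genes were then called higher and lower. With an adjusted p under 0.05, 9 members rose and 3 fell, against 7.84% and 5.06% of all genes. The median log2 fold change was 0.18 over the members and 0.02 over all genes.

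In shKDM3B cells, 11 of 43 members rose with ATRA and 7 fell, where 24.0% of all 12756 genes tested were called higher and 18.3% lower. All 18 had an adjusted p under 0.05, as did 23.0% of all genes upward and 17.3% downward. The upward share of the members, 11 of 43, was thus close to that of all genes. Of the called members, 9 were higher in both ATRA comparisons (HK3, PFKFB2, PGAM1, PKM, PGD, TKT, IDH1, IDH3A and FBP1) and 3 were lower in both (HK2, ENO2 and PDK1). Of all 11968 genes tested in both, 12.0% were called higher in each and 9.12% lower in each. PFKM and RPE were also called higher, and HK1, ALDOC, PFKFB4 and LDHA lower, in shKDM3B cells. The test of the difference between the cell populations, given below, was passed by HK1 and LDHA, and not by PFKM (0.56, P of 0.196), RPE (0.13, P of 0.623), ALDOC (-1.05, P of 0.334) or PFKFB4 (-1.40, P of 0.167). With no filter on low counts, ALDOC and PFKFB4 also passed that test. The median over the members was -0.04, and over all genes 0.04. The count of lower members was 12 without shKDM3B replicate 1, where 21.1% of all genes were called lower. In shNC cells it was 5 without shNC+ATRA replicate 1 (17.7% of all genes) and 2 without shNC replicate 2 (6.02%).

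**Figure D1:**
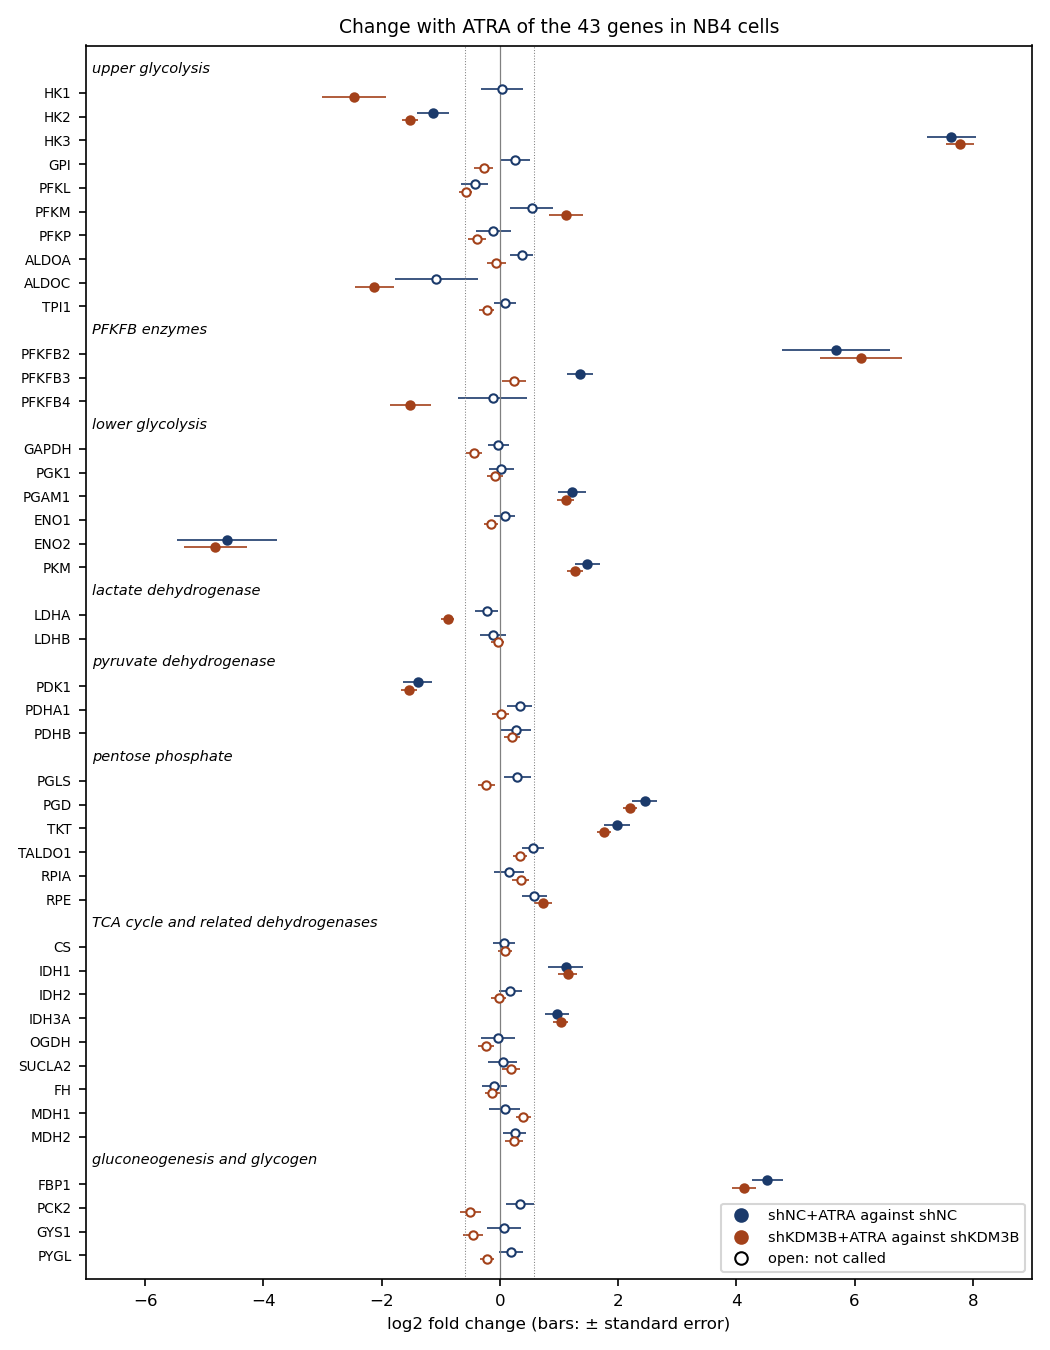
Log2 fold change with ATRA (x axis, with its standard error as bars) of each of the 43 genes, grouped by role, in shNC cells (blue) and in shKDM3B cells (red). Filled points are called genes and dotted lines mark a 1.5-fold change; HK3, PFKFB2 and FBP1 lie far to the right and ENO2 far to the left in both cell populations, while most members lie between the dotted lines.

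With knockdown, LDHA, IDH1 and FBP1 were called without ATRA, in this fit a share of the members near that of all genes. Without ATRA, 2 of 42 members tested were called higher (LDHA and IDH1) and 1 lower (FBP1), where 3.48% of all 13855 genes tested were called higher and 3.53% lower. With the replicate number added as a block, 5 members were called higher and 2 lower, against 4.43% and 4.53% of all genes. With no filter on low counts, 5 were higher and 3 lower, against 2.76% and 3.06%. With ATRA, 0 of 42 were called higher and 5 lower (HK1, HK3, PFKFB3, FBP1 and PCK2), where 2.42% of all 14281 genes were called higher and 4.37% lower. By edgeR's test FBP1 was the only member called in both, where 1.11% of the 11325 genes tested in both were called lower in each, and by DESeq2 IDH1 was also called, higher in both. With the filter and no block, no member passed an adjusted p of 0.05 in edgeR's quasi-likelihood test in either comparison, in which 5 and 6 members had an unadjusted P under 0.05. Without ATRA, 5 members passed it at the same fold with the block (5.63% of all genes) and 4 with no filter (2.30%). With an adjusted p under 0.05 and the same fold, DESeq2 called 2 members without ATRA (LDHA and IDH1), against 2.01% of all genes in both directions. With ATRA it called 4 (HK1, HK3, PFKFB3 and FBP1), against 2.50%. The median over the members was 0.06 without ATRA (0.00 over all genes) and -0.11 with it (0.03 over all genes).

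The knockdown counts without ATRA rested on single libraries. Leaving out shNC replicate 2 gave 8 members higher and 2 lower, where 6.74% of all genes were called higher and 4.77% lower. Leaving out shKDM3B replicate 1 gave 4 higher and 0 lower (3.36% and 3.73% of all genes). Leaving out shNC replicate 1 gave 1 higher and 1 lower (3.43% and 3.07%), and leaving out shKDM3B replicate 2 gave 3 higher and 2 lower (4.29% and 4.65%). With ATRA, 5 members were called lower without shNC+ATRA replicate 1, when the spread came from the shKDM3B+ATRA pair alone and 8.34% of all genes were called lower in place of 4.37%. Without shNC+ATRA replicate 2, 1 was called higher and 7 lower, where 23.2% and 13.2% of all genes were. Without shKDM3B+ATRA replicate 2, 4 were called lower, against 1.51% of all genes. Without shKDM3B+ATRA replicate 1, 2 of the 5 remained called (HK1 and FBP1), where 0.679% of all genes were called lower.

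**Figure D2:**
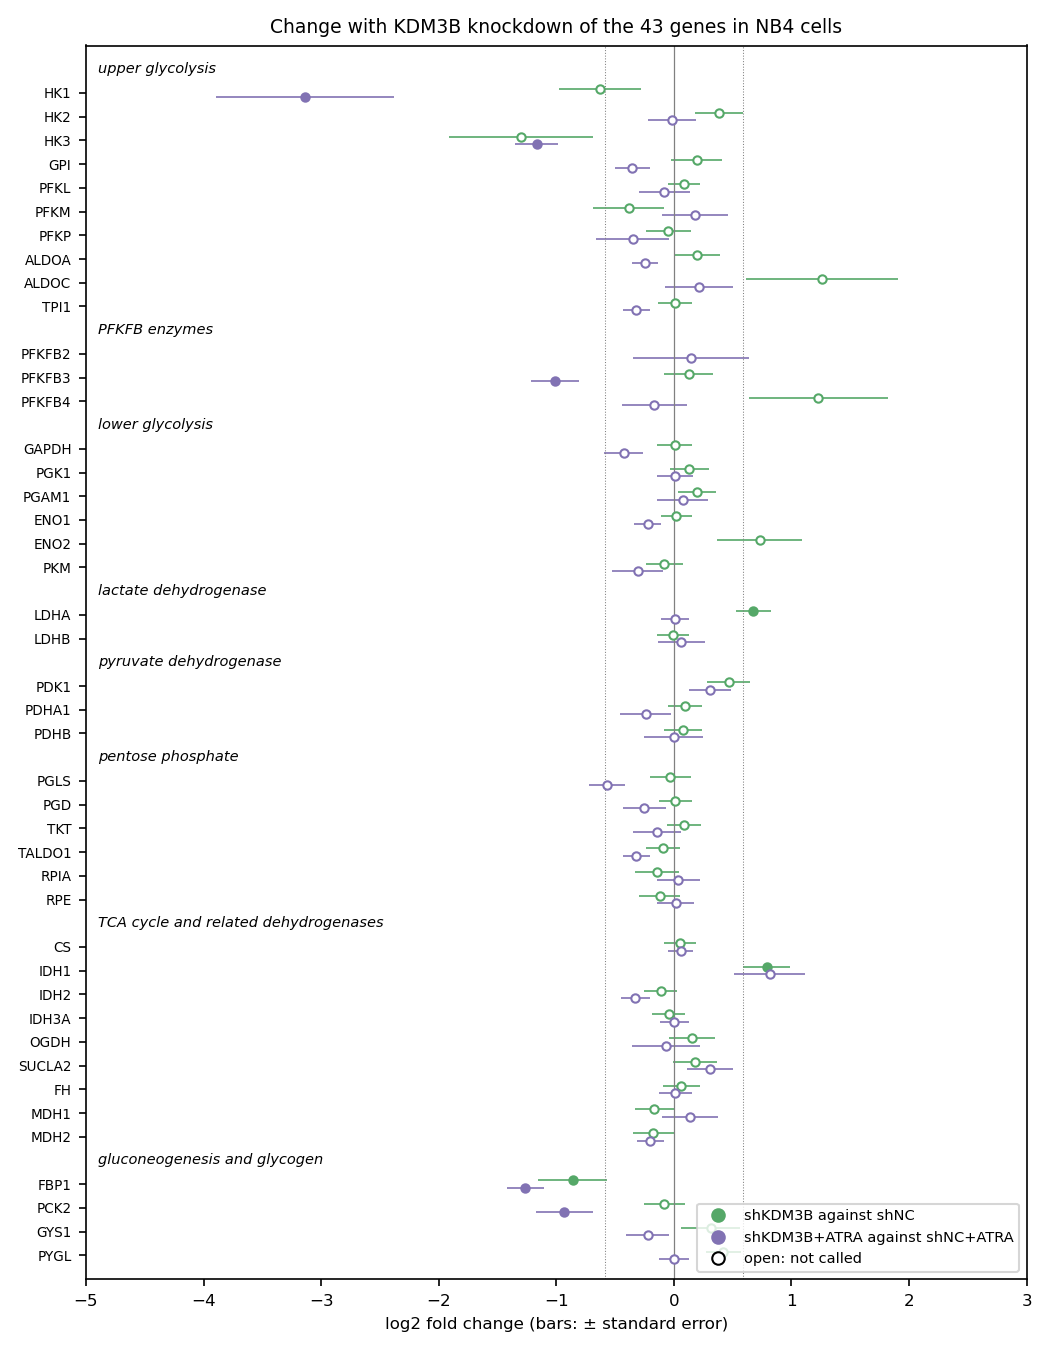
Log2 fold change with KDM3B knockdown (x axis, with its standard error as bars) of the 43 genes, without ATRA (green) and with ATRA (purple). Filled points are called genes, and genes that did not pass the filter on low counts have no point; HK1, HK3, PFKFB3, FBP1 and PCK2 are the filled purple points on the left, and LDHA and IDH1 the filled green points on the right.

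The hexokinases, which trap glucose in the cell by phosphorylating it, changed most in their make-up. HK3, the hexokinase of myeloid cells (chr5:176880869-176899346, hg38), was at 1 and 0.462 CPM in shNC, 0.308 and 0.276 CPM in shKDM3B, 160 and 122 CPM in shNC+ATRA, and 61.2 and 64.3 CPM in shKDM3B+ATRA. Every ATRA library was thus far above every untreated library, and both shKDM3B+ATRA libraries were below both shNC+ATRA libraries. HK3 rose with ATRA by 7.64 ± 0.412 (SE, log2) in shNC and 7.78 ± 0.236 in shKDM3B, with adjusted p of 0.000135 and 2.46e-08 by edgeR's quasi-likelihood test. The untreated levels of HK3 rest on 20 and 11 counts in shNC and 6 and 9 in shKDM3B. In shNC the rise of HK3 was 8.26 without shNC replicate 1 and 7.15 without shNC replicate 2. Between the ATRA-treated groups its log2 fold change with knockdown was -1.17 ± 0.184, with an unadjusted P of 0.00428 and an adjusted p of 0.502.

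HK2, the inducible hexokinase of growing cells (chr2:74834127-74893359), was at 178 and 262 CPM in shNC, 255 and 318 in shKDM3B, 113 and 82.6 in shNC+ATRA, and 92.9 and 99.8 in shKDM3B+ATRA. All ATRA libraries were below all untreated libraries. It fell by 1.13 ± 0.271 (log2) in shNC and by 1.52 ± 0.143 in shKDM3B, with adjusted p of 0.0358 and 2.46e-05. The call in shNC was lost without shNC replicate 2. HK1, the housekeeping hexokinase of many tissues (chr10:69269984-69401884), was scarce in all libraries, at 5.57 and 8.06 CPM in shNC, 3.13 and 5.61 in shKDM3B, 7.29 and 6.36 in shNC+ATRA, and 0.316 and 1.21 in shKDM3B+ATRA. The last pair rests on 3 and 12 counts, against 119 and 69 in shNC+ATRA. HK1 had a log2 fold change with knockdown of -3.14 ± 0.757 among ATRA-treated cells (unadjusted P of 0.017, adjusted p of 0.502) and fell with ATRA by 2.46 ± 0.542 in shKDM3B (adjusted p of 0.00453), but by edgeR's test it was not called in shNC (0.04 ± 0.354). Without shKDM3B+ATRA replicate 1 and without replicate 2, the knockdown value was -2.49 and -4.39 and the ATRA value -1.81 and -3.73, all still called.

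Levels were scaled per kb of all annotated exon bases of a gene, which need not be the length of the transcripts expressed, so shares between genes depend on the annotation. On this scale HK2 made up 96.4 to 98.7% of the summed level of the 3 hexokinases in the untreated libraries and HK3 0.153 to 0.975%. In shNC+ATRA, HK3 made up 70.6 and 71.3% and HK2 27.9 and 26.9%. In shKDM3B+ATRA the shares were nearer to each other, at 54.1 and 53.3% for HK3 and 45.8 and 46.2% for HK2. Beside these values stand the granulocytic genes named above, all 3 of which were called higher with ATRA in both cell populations and lower with knockdown in both states (median log2 fold change with knockdown of -0.90 without ATRA and -1.03 with it). MPO was called in the opposite direction to HK3 with ATRA in both cell populations and with knockdown under ATRA. Whether HK3 moves with the state of differentiation of the cells was not tested, and in bulk RNA fewer differentiated cells and less HK3 per cell cannot be told apart.

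**Figure D3:**
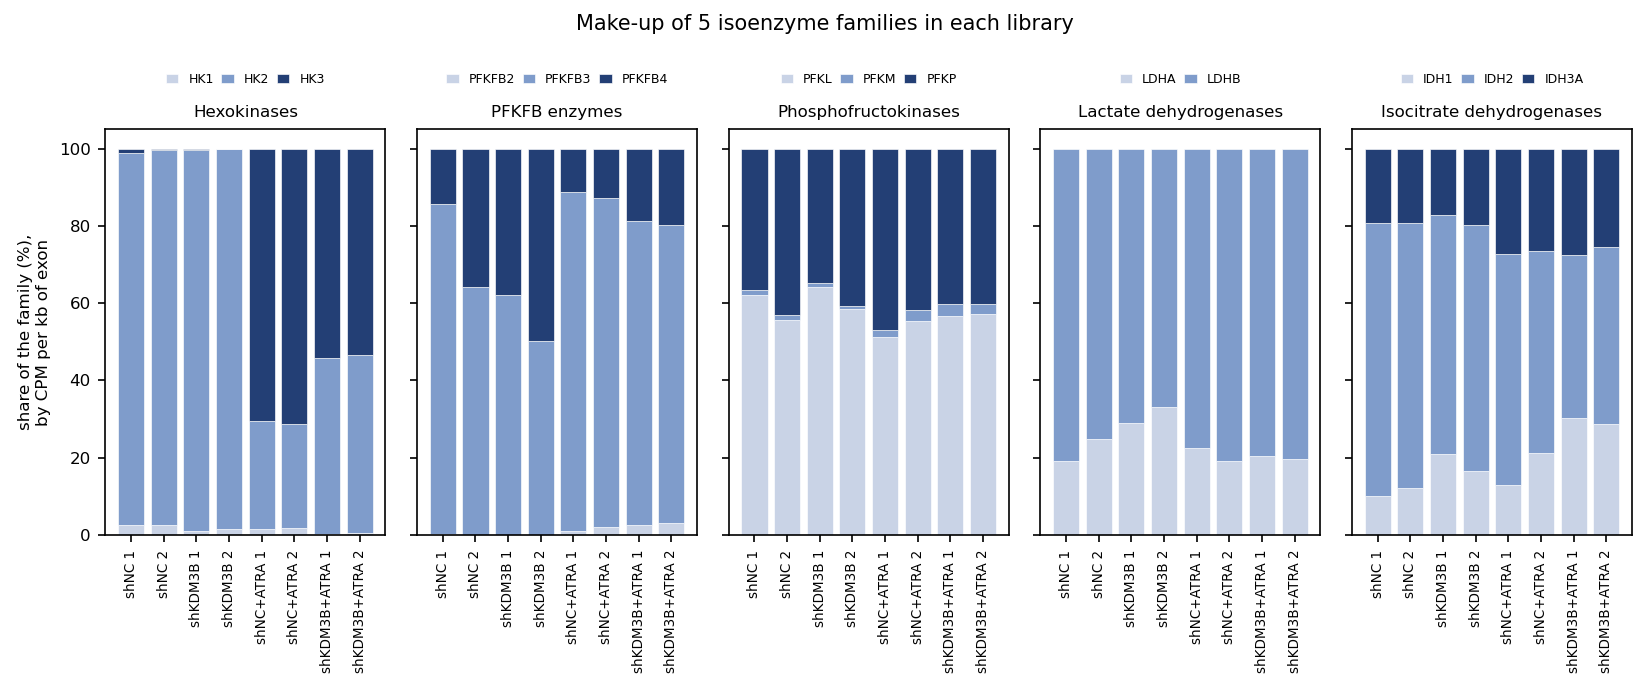
Share of each isoenzyme in its family (y axis, percent of the family's summed CPM per kb of exon) in each of the 8 libraries (x axis), for hexokinases, PFKFB enzymes, phosphofructokinases, lactate dehydrogenases and isocitrate dehydrogenases. HK2 fills the hexokinase bars of the untreated libraries and HK3 takes 53.3 to 71.3% of them in the ATRA libraries, while the phosphofructokinase bars differ little.

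Of the other genes of upper glycolysis, glucose 6-phosphate isomerase (GPI), the phosphofructokinases PFKL and PFKP, the aldolase ALDOA and triose-phosphate isomerase (TPI1) were called in no comparison by edgeR's test. PFKL, which carries out the committed step, lay between 131 and 234 CPM over the 8 libraries and came nearest, with a log2 fold change of -0.58 ± 0.116 with ATRA in shKDM3B, just short of 1.5-fold (adjusted p of 0.0027). DESeq2 gave -0.59 there and called it (adjusted p of 0.000184), as did edgeR without the filter on low counts or in one fit of all 8 libraries. PFKP lay between 85.9 and 148 CPM. PFKM, the muscle form, was at 3.46 and 4.28 CPM in shNC, 2.83 and 3.1 in shKDM3B, 5.76 and 5.26 in shNC+ATRA, and 6.53 and 5.93 in shKDM3B+ATRA. It rose by 1.12 ± 0.282 with ATRA in shKDM3B (adjusted p of 0.00901) and had 0.54 ± 0.363 in shNC, where it was not called. Per kb, PFKM made up 0.954 to 3.08% of the phosphofructokinases, PFKL 51.2 to 64.3% and PFKP 34.7 to 46.8%.

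The aldolases split fructose 1,6-bisphosphate, and ALDOA, at 1210 to 1790 CPM, made up 96.4 to 99.5% of the pair per kb. ALDOC was at 4.27 and 24.1 CPM in shNC, 22.3 and 45.8 in shKDM3B, 6.37 and 6.73 in shNC+ATRA, and 8.53 and 6.63 in shKDM3B+ATRA. In both untreated groups replicate 2 was well above replicate 1, so that the shNC range spanned the ATRA values. ALDOC fell by 2.12 ± 0.332 with ATRA in shKDM3B (adjusted p of 0.000635), with a value of -1.50 without shKDM3B replicate 2. In shNC its log2 fold change was -1.08 ± 0.702 and not called. It became 0.65 without shNC replicate 2, and was called lower without each of the other 3 libraries, at -1.85 without shNC replicate 1.

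The PFKFB enzymes set the level of fructose 2,6-bisphosphate, the activator of phosphofructokinase. PFKFB3, whose kinase activity favours glycolysis (chr10:6144934-6254644), was at 35.2 and 43.8 CPM in shNC, 36 and 50 in shKDM3B, 108 and 90 in shNC+ATRA, and 42.4 and 55.6 in shKDM3B+ATRA. Only the shNC+ATRA pair stood apart from the rest. It rose with ATRA by 1.36 ± 0.227 in shNC (adjusted p of 0.00915), and in shKDM3B it had a log2 fold change of 0.24 ± 0.198 and was not called. Among ATRA-treated cells it was lower with knockdown by a log2 fold change of -1.01 ± 0.204 (unadjusted P of 0.00975, adjusted p of 0.502).

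PFKFB2 gave 2 and 0 counts in shNC and 0 and 2 in shKDM3B, against 34 and 36 in shNC+ATRA and 21 and 37 in shKDM3B+ATRA. Pooled over libraries and scaled to depth, that is a ratio of 56.4 (95% counting interval 15 to 475) in shNC and 77.6 (20.5 to 656) in shKDM3B, with adjusted p of 0.00768 and 8.6e-05. Without the untreated library that held the 2 counts, the remaining one was at 0. Taking 3 counts as its floor, PFKFB2 had a ratio of 20.5 in shNC and 19.4 in shKDM3B. The lower 95% counting bounds were 16.2 and 15.2. Without the other untreated library the ratio was 25.7 and 48.6. PFKFB4 was at 5.82 and 24.5 CPM in shNC, 21.9 and 49.3 in shKDM3B, 13.7 and 13.6 in shNC+ATRA, and 10.1 and 14.1 in shKDM3B+ATRA. As for ALDOC, the untreated replicates were wide apart. PFKFB4 fell by 1.51 ± 0.35 with ATRA in shKDM3B (adjusted p of 0.00582) and was not called in shNC (-0.12 ± 0.589). The value in shKDM3B was -0.80, and still called, without shKDM3B replicate 2. In shNC it turned to 1.26, and was called higher, without shNC replicate 2. Per kb, PFKFB3 made up 50.3 to 85.7% of the 3 enzymes in the untreated libraries and 77.3 to 87.8% in the ATRA libraries.

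Lower glycolysis moved in part. PKM, pyruvate kinase, which makes pyruvate and ATP, was at 1400 and 1440 CPM in shNC, 1180 and 1510 in shKDM3B, 4520 and 3220 in shNC+ATRA, and 3060 and 3180 in shKDM3B+ATRA. It rose with ATRA by 1.48 ± 0.215 in shNC and 1.27 ± 0.138 in shKDM3B, with adjusted p of 0.00529 and 6.28e-05. PGAM1, phosphoglycerate mutase, was at 516 and 574 CPM in shNC, 554 and 693 in shKDM3B, 1030 and 1450 in shNC+ATRA, and 1220 and 1380 in shKDM3B+ATRA. For both genes the ATRA libraries lay above all untreated ones. PGAM1 rose by 1.22 ± 0.237 and 1.11 ± 0.141 (adjusted p of 0.0159 and 0.000176). GENCODE lists 13 pseudogenes named after PGAM1 and 5 after PKM, and pairs that aligned to several places were not counted.

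ENO2, the neuronal enolase, was at 2.71 and 4.7 CPM in shNC and 4.78 and 7.49 in shKDM3B, from 54 to 244 counts. With ATRA it gave 4 and 0 counts in shNC+ATRA and 1 and 3 in shKDM3B+ATRA. The ratio of untreated to treated was 25.8 (95% counting interval 9.87 to 95.7) in shNC and 31.5 (12.2 to 116) in shKDM3B, with adjusted p of 0.013 and 7.62e-05. These ratios moved with single libraries. In shNC the ratio was 15.5 without shNC+ATRA replicate 2. Without shNC+ATRA replicate 1 the remaining library was at 0, and with 3 counts as its floor the ratio was 13.7 (lower 95% counting bound of 11). In shKDM3B the ratio was 21.5 without shKDM3B+ATRA replicate 1 and 61.5 (95% counting interval from 11 upward) without replicate 2. ENO1, the main enolase, stayed between 2480 and 3070 CPM and made up at least 99.7% of the pair per kb in every library. GAPDH, at 3100 to 5050 CPM, PGK1, at 988 to 1350 CPM, and ENO1 were called in no comparison. The log2 fold changes of these 3 with ATRA lay between -0.03 and 0.08 in shNC and between -0.44 and -0.09 in shKDM3B.

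**Figure D4:**
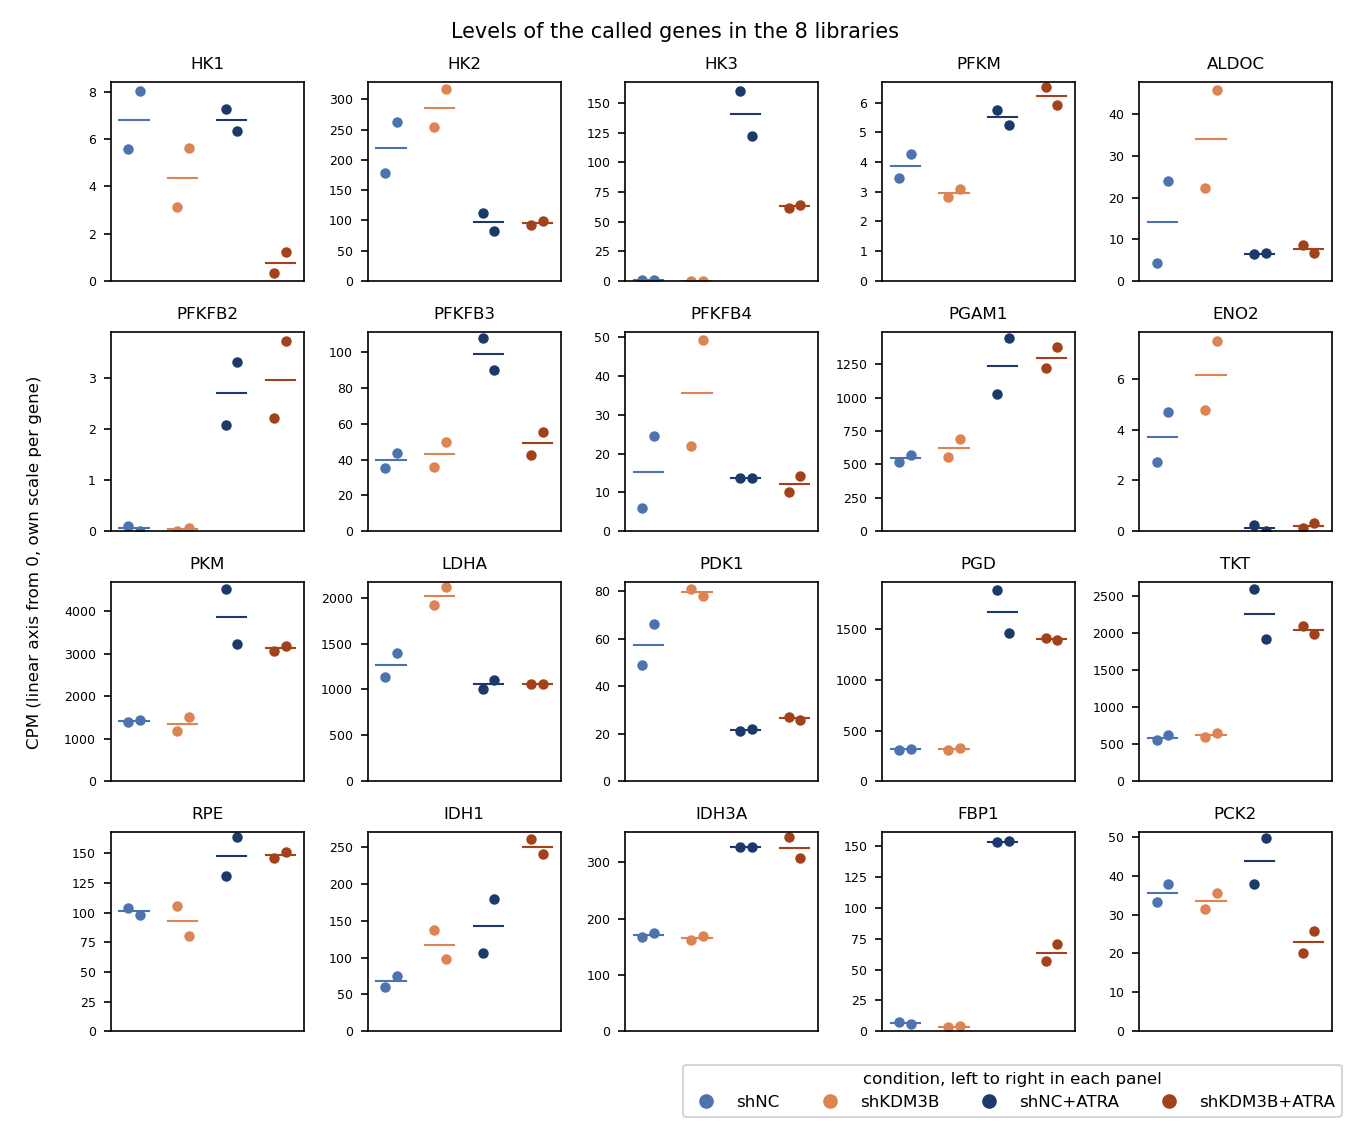
CPM (y axis, linear from 0, own scale for each gene) of the 20 members called in at least 1 comparison, with a point for each library and a bar at the mean of the 2 libraries of each condition. HK3, PGD, TKT, PKM and FBP1 stand high in both ATRA conditions, HK2, PDK1 and ENO2 stand low there, and PFKFB3 stands apart in shNC+ATRA.

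Lactate dehydrogenase converts pyruvate to lactate and back. LDHA, the form that favours lactate (chr11:18394560-18408425), was at 1140 and 1400 CPM in shNC, 1920 and 2120 in shKDM3B, 1010 and 1100 in shNC+ATRA, and 1060 and 1060 in shKDM3B+ATRA. The untreated knockdown pair was above all other libraries, and the ATRA pairs were alike. LDHA was called higher with knockdown without ATRA, by 0.68 ± 0.151 (unadjusted P of 0.00193, adjusted p of 0.157), a call lost without shNC replicate 1. Its log2 fold change with knockdown under ATRA was 0.01 ± 0.119. With ATRA it fell by 0.88 ± 0.114 in shKDM3B (adjusted p of 0.000198) and had -0.23 ± 0.202 in shNC, where it was not called.

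LDHB, the heart form, lay between 1710 and 2400 CPM and was called in no comparison. The log2 ratio of LDHA to LDHB counts was -1.08 and -0.58 in shNC, -0.28 and -0.01 in shKDM3B, -0.76 and -1.07 in shNC+ATRA, and -0.96 and -1.02 in shKDM3B+ATRA. The shKDM3B pair was thus the highest. Per kb of exon LDHA made up 29 and 33% of the pair in shKDM3B and 19 to 24.8% in the other 6 libraries. GENCODE lists 6 pseudogenes named after LDHA.

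At the entry to the TCA cycle, PDK1, the kinase that switches pyruvate dehydrogenase off, was at 48.8 and 66.1 CPM in shNC, 80.9 and 78.1 in shKDM3B, 21 and 21.8 in shNC+ATRA, and 27.1 and 25.7 in shKDM3B+ATRA. All 4 ATRA libraries were below all untreated ones. PDK1 fell by 1.39 ± 0.241 in shNC and by 1.54 ± 0.14 in shKDM3B (adjusted p of 0.0104 and 1.98e-05). The enzyme subunits themselves, PDHA1 at 181 to 274 CPM and PDHB at 86.6 to 134 CPM, were called in no comparison.

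The pentose phosphate pathway held some of the steadiest rises. PGD, 6-phosphogluconate dehydrogenase, an NADPH-producing enzyme (chr1:10398592-10420511), was at 311 and 315 CPM in shNC, 304 and 328 in shKDM3B, 1890 and 1460 in shNC+ATRA, and 1410 and 1390 in shKDM3B+ATRA. TKT, the transketolase of the non-oxidative branch (chr3:53224712-53256052), was at 554 and 617 CPM in shNC, 591 and 652 in shKDM3B, 2590 and 1920 in shNC+ATRA, and 2090 and 1980 in shKDM3B+ATRA. Both genes were several-fold higher in each ATRA library than in any untreated library. PGD rose by 2.45 ± 0.216 in shNC and 2.20 ± 0.118 in shKDM3B, with adjusted p of 0.000789 and 6.55e-07. TKT rose by 1.98 ± 0.221 and 1.77 ± 0.118, with adjusted p of 0.00186 and 2.74e-06. Neither was called with knockdown.

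RPE, ribulose-phosphate epimerase, was at 104 and 98.4 CPM in shNC, 106 and 80.2 in shKDM3B, 131 and 164 in shNC+ATRA, and 146 and 151 in shKDM3B+ATRA. It was called in shKDM3B (0.73 ± 0.151, adjusted p of 0.00323), although not without shKDM3B replicate 2, and lay near 1.5-fold in shNC, where its log2 fold change was 0.39 without shNC+ATRA replicate 2 and 0.75, and called, without shNC+ATRA replicate 1. Some 23.8% of its exon bases are also exons of KANSL1L on the other strand. PGLS, TALDO1 and RPIA, the lactonase, transaldolase and isomerase of the pathway, were called in no comparison, at 41.9 to 68.8, 287 to 483 and 58.6 to 89.8 CPM.

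Among the TCA cycle genes and their related dehydrogenases, 2 of 9 were called higher with ATRA in each population and 0 lower, a share near the 15.0% and 24.0% of all genes called higher. IDH1, the cytosolic, NADPH-producing isocitrate dehydrogenase (chr2:208236229-208266074), was at 60.4 and 75.6 CPM in shNC, 137 and 98.6 in shKDM3B, 106 and 180 in shNC+ATRA, and 261 and 241 in shKDM3B+ATRA. The knockdown pair was above the control pair in both states. IDH1 was called higher with knockdown without ATRA, by 0.79 ± 0.201 (unadjusted P of 0.00415, adjusted p of 0.203), and the call was lost without shKDM3B replicate 1. With ATRA the knockdown log2 fold change was 0.81, which edgeR's test with TMM scaling did not call and DESeq2 did. That value was 0.49 without shNC+ATRA replicate 1 and 1.24, and called, without shNC+ATRA replicate 2. With ATRA, IDH1 rose by 1.14 ± 0.163 in shKDM3B (adjusted p of 0.000363), and in shNC by 1.11 ± 0.299 (adjusted p of 0.0532), a call that was lost without shNC replicate 1 and a value that was 0.65 without shNC+ATRA replicate 2 and 1.45 without shNC+ATRA replicate 1.

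IDH3A, the catalytic subunit of the NAD-dependent enzyme of the cycle, was at 167 and 175 CPM in shNC, 162 and 170 in shKDM3B, 327 and 327 in shNC+ATRA, and 345 and 307 in shKDM3B+ATRA. The ATRA libraries did not overlap the untreated ones. It rose by 0.97 ± 0.197 and 1.03 ± 0.122 (adjusted p of 0.0196 and 0.000114). Exons on the other strand, mainly of ACSBG1, cover 38.8% of its exon bases, and their part in the result was not tested. IDH2, the mitochondrial NADPH-producing form, lay between 215 and 294 CPM. Per kb, IDH2 made up 62.1 to 70.6% of these 3 genes in the untreated libraries and 42.1 to 59.9% in the ATRA libraries. IDH1 made up 10.1 and 12.1% in shNC, 20.9 and 16.5% in shKDM3B, 12.8 and 21.2% in shNC+ATRA, and 30.3 and 28.7% in shKDM3B+ATRA.

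Citrate synthase (CS, 452 to 486 CPM), fumarase (FH, 132 to 175 CPM), the oxoglutarate dehydrogenase OGDH (129 to 222 CPM) and the succinyl-CoA synthetase subunit SUCLA2 (81.5 to 122 CPM) were called in no comparison. The same held for the malate dehydrogenases, MDH1 at 146 to 216 CPM and MDH2 at 362 to 579 CPM, with MDH2 making up 75 to 84.5% of the pair per kb. The median log2 fold change of the 9 genes was 0.08 with ATRA in shNC and 0.19 in shKDM3B.

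FBP1, fructose 1,6-bisphosphatase, which runs the phosphofructokinase step in reverse for gluconeogenesis (chr9:94603133-94640249), was at 7.83 and 5.83 CPM in shNC, 3.34 and 4.14 in shKDM3B, 153 and 154 in shNC+ATRA, and 56.9 and 70.7 in shKDM3B+ATRA. Knockdown libraries lay below control libraries in both states, and the ATRA libraries far above the untreated ones. FBP1 rose with ATRA by 4.53 ± 0.261 in shNC and 4.13 ± 0.202 in shKDM3B (adjusted p of 0.000161 and 3.81e-07). With knockdown its log2 fold change was -0.86 ± 0.292 without ATRA (unadjusted P of 0.0178, adjusted p of 0.342) and -1.26 ± 0.158 with it (unadjusted P of 0.00189, adjusted p of 0.502). The call without ATRA was lost without shNC replicate 1 and without shKDM3B replicate 1, and that with ATRA held without each library. Exons of PCAT7 on the other strand cover 14.8% of its exon bases. The summed granulocytic genes given above moved in the same directions and MPO in the opposite ones, and their part in the result was not tested.

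PCK2, the mitochondrial PEP carboxykinase, was at 33.3 and 37.8 CPM in shNC, 31.5 and 35.6 in shKDM3B, 38 and 49.8 in shNC+ATRA, and 20.1 and 25.7 in shKDM3B+ATRA. Only the shKDM3B+ATRA pair was below the others. Among ATRA-treated cells its log2 fold change with knockdown was -0.93 ± 0.244 (unadjusted P of 0.0219, adjusted p of 0.502), and the call was lost without either shKDM3B+ATRA library. Glycogen synthase (GYS1, 65.3 to 124 CPM) and liver-type glycogen phosphorylase (PYGL, 190 to 280 CPM) were called in no comparison.

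Whether the response to ATRA differed between shKDM3B and shNC cells was tested with an interaction term in a fit of the 8 libraries. No member had a higher response in shKDM3B at an unadjusted P under 0.05 and 4 had a lower one, where 1.42% of all 13528 genes tested passed upward and 3.07% downward. The 4 were HK1 (-2.51 ± 0.787, P of 0.0146), PFKFB3 (-1.14 ± 0.323, P of 0.00926), PCK2 (-0.85 ± 0.28, P of 0.018) and LDHA (-0.67 ± 0.195, P of 0.0101). PFKFB3 was called higher with ATRA in shNC and not in shKDM3B, and for LDHA the untreated level, from which the response is taken, was called higher after knockdown. All 4 had an adjusted p of 1, and DESeq2 likewise gave no adjusted p under 0.05 and an unadjusted P under 0.05 to 4 members. The count of members with a lower response was 10 without shNC replicate 2, where 3.22% of all genes passed downward. It was also 10 without shNC+ATRA replicate 2, where MDH1 had a higher response and 10.7% of all genes passed downward. It was 6 without shKDM3B replicate 1 (2.67%), 1 without shKDM3B replicate 2 (1.39%), and 2 without shNC replicate 1 (1.77%) or without shKDM3B+ATRA replicate 1 (1.14%). HK1 lay between -3.74 and -1.83 and was not past the test without shNC replicate 1 or without shKDM3B replicate 2. PCK2 was past it in 5 of the 8 fits that left out 1 library, LDHA in 6 and PFKFB3 in 7. PCK2 was lost without shNC replicate 1, shKDM3B replicate 2 or shKDM3B+ATRA replicate 1, LDHA without shKDM3B replicate 2 or shKDM3B+ATRA replicate 2, and PFKFB3 without shKDM3B+ATRA replicate 1. The median difference was -0.23 over the members and -0.02 over all genes. Of all genes past the test 31.6% were higher, and 45% when libraries were scaled by their size alone, which gave the same number of members.

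Another 67 genes of these pathways were counted beside the 43, of which 53 to 56 passed the filter. With ATRA, 8 of 53 were called higher and 7 lower in shNC, and 11 of 55 higher and 9 lower in shKDM3B. Of all genes, 15.0% and 10.8% were called higher and lower in shNC, and 24.0% and 18.3% in shKDM3B, so the upward counts of the list were at or below the shares of all genes. Of the transporters, SLC2A5, a fructose transporter, rose by 3.14 ± 0.217 and 2.43 ± 0.173, and SLC16A1, a lactate transporter, fell by 1.35 ± 0.206 and 1.20 ± 0.121. OGDHL, a paralogue of OGDH, fell by 1.40 ± 0.336 and 2.04 ± 0.179, and SDHD, a subunit of succinate dehydrogenase, rose by 1.29 ± 0.275 in shNC.

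Of the remaining lists, the phosphorylase kinase subunit PHKA1 fell by 1.30 ± 0.313 with ATRA in shNC, and muscle phosphorylase (PYGM) fell by 1.12 ± 0.345 in shKDM3B. PDP1 and PDPR, a catalytic and a regulatory part of pyruvate dehydrogenase phosphatase, fell by 1.12 ± 0.254 and 0.71 ± 0.119 in shKDM3B, and had -1.15 ± 0.419 and -0.70 ± 0.276 in shNC. RBKS, ribokinase, rose by 1.11 ± 0.303 in shKDM3B, and PRPS2, which makes phosphoribosyl pyrophosphate, had -0.74 ± 0.248 in shNC.

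Some of these genes followed the share of pairs assigned to no gene. ENO3, the muscle enolase, was at 4.82 to 6.68 CPM in the untreated libraries and 11.7 CPM in shNC+ATRA replicate 1, but at 592 in shNC+ATRA replicate 2 and 367 and 454 in shKDM3B+ATRA. GAPDHS, the sperm form of GAPDH, was at no more than 0.0613 CPM in the former 5 libraries and at 5.16 to 6.23 CPM in the latter 3, and pyruvate carboxylase (PC) at no more than 0.306 against 4.32 to 7.38 CPM. PGAM2, the muscle phosphoglycerate mutase, was at no more than 0.103 CPM in the former and at 2.31 to 3.72 CPM in the latter. PHKG2, another phosphorylase kinase subunit, was at 27.8 to 38.7 CPM in the former and 58.2 to 80.2 CPM in the latter, with a log2 fold change with ATRA of 0.90 ± 0.356 in shNC and 1.18 ± 0.151 in shKDM3B. GYG1, a glycogenin, was at 52.7 to 68.9 against 98 to 113 CPM. Exons on the other strand cover 2.59% of the exon bases of ENO3, 62.7% of GAPDHS, 20.9% of PHKG2 and 8.5% of PC, and exons of DBNL cover 100% of PGAM2. The log2 fold change of ENO3 with ATRA in shNC was 1.27 without replicate 2 and 6.97 without replicate 1 of shNC+ATRA, and the part of the pairs assigned to no gene, and of a strand setting that may differ between these libraries, in these values was not tested.

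With knockdown, 4 of 53 of these genes were called higher and 0 lower without ATRA, and 1 of 54 higher and 1 lower with it, where 3.48% and 3.53% of all genes were called without ATRA and 2.42% and 4.37% with it. They are named here although their values were seen. Without ATRA the 4 were SDHD (1.06 ± 0.201), SLC2A1, the basal glucose transporter (0.69 ± 0.222), PHKA1 (0.62 ± 0.218) and H6PD, the hexose 6-phosphate dehydrogenase of the endoplasmic reticulum (0.61 ± 0.186). With ATRA they were ACO1, cytosolic aconitase (0.62 ± 0.207), and SLC2A3, a high-affinity glucose transporter (-0.92 ± 0.297). SLC2A3 was also past the interaction test (-1.37 ± 0.547, P of 0.0394), as was SLC2A5 (-0.72 ± 0.256, P of 0.0247), with an adjusted p of 1 for both.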

How the data were processed

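Total RNA of 8 libraries was sequenced. According to the study's methods and the labels, the authors aligned reads to hg38 with HISAT2 and counted them on genes with HTSeq. The deposited files hold raw whole-number counts per gene, without normalization, and 5 summary lines, which were kept out of library sizes. They list 56470 names for untreated and 56609 for treated libraries, 37526 of them shared. Since the annotation differs between the sets, reads of overlapping genes can be assigned differently. Whether counting used strand is not given in the sources used here.

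Each pair of conditions was fitted with edgeR 4.0.16 in R 4.3.3 (filterByExpr, TMM, quasi-likelihood F test), on the names shared by its libraries. The SE is the log2 fold change divided by the square root of F. A gene was called at P under 0.05 and a fold change of at least 1.5, and adjusted p-values are Benjamini-Hochberg values over all genes of the fit. With 2 against 2 libraries, a two-sided permutation test cannot go below 0.333. The interaction was fitted over 8 libraries on 13528 genes. CPM used TMM scaling over the 8 libraries. Exon lengths, overlaps and pseudogene names came from GENCODE v44, and promoters from RefSeq (41 of 43 members). The exon length of a gene is that of all its annotated exons merged. Counting intervals are 95% and cover counting error only. The calls were checked on simulated counts with 200 genes changed by 3-fold.

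The members and lists were chosen with earlier results of these data known. All 43 members were accounted for: those called in a pairwise comparison or in an isoenzyme family (hexokinases, phosphofructokinases, PFKFB enzymes, aldolases, enolases, lactate, isocitrate and malate dehydrogenases) are given with levels, the rest by range. Of the other pathway genes, the 2 with the largest called change of each list with ATRA are named. A few listed genes are not reported here. Alternatives were DESeq2 1.42.0 and its size factors, library size alone, no filter, adjusted p, all 8 libraries in one fit, a replicate block and leaving out each library.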

Additional observations from a re-analysis of the deposited data

Results flagged for a closer look

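The response to ATRA differed between shKDM3B and shNC cells, by the interaction test at an unadjusted P under 0.05, for 4 members. The difference in log2 fold change, shKDM3B minus shNC, was -2.51 for HK1, -1.14 for PFKFB3, -0.85 for PCK2 and -0.67 for LDHA. All had an adjusted p of 1. Of all 13528 genes tested, 1.42% passed upward and 3.07% downward. HK1 rests on 3 and 12 counts in shKDM3B+ATRA.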

How the results depend on the processing

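Of the 47 values with a test, 43 were calls of members, and these kept their direction under every alternative. The other 4 were values of KDM3B. Its value with ATRA in shNC, which was not called, moved from -0.21 to 0.08 without shNC+ATRA replicate 2. Scaling, no filter, DESeq2, one fit of all libraries and the replicate block ended no call, although they added others. With the filter and no block, requiring an adjusted p left 0 and 0 members (higher and lower) with knockdown. It left 0 with knockdown under ATRA and 0 in the interaction. KDM3B, at -1.21 and -1.53, no longer passed in either knockdown comparison by edgeR's test in these fits. For knockdown without ATRA, where 2 were higher and 1 lower, no filter gave 5 and 3, the replicate block 5 and 2 (both added ALDOC, PFKFB4, ENO2 and HK1, and no filter also HK3), where 2.76% and 3.06% of all genes were called with no filter and 4.43% and 4.53% with the block, one fit of all libraries 2 lower, and leaving out a library 1 to 8 higher and 0 to 2 lower. The replicate numbers share no stated batch, and whether same-numbered libraries were paired was not tested. Their deviations correlated at 0.389 for knockdown without ATRA and 0.026 for knockdown under ATRA. The correlation was -0.0751 with ATRA in shNC and 0.184 with ATRA in shKDM3B. For knockdown without ATRA, the block left 5 members at an adjusted p under 0.05 and the fold (LDHA, PFKFB4, ALDOC, IDH1 and FBP1), against 5.63% of all genes. KDM3B then had an adjusted p of 3.97e-07 by edgeR's test. For knockdown under ATRA, library size alone, no filter, DESeq2 and the fit of all libraries each gave 1 higher in place of 0 (IDH1 under no filter, DESeq2 and that fit), and leaving out a library gave 0 to 1 higher and 2 to 7 lower. With ATRA in shKDM3B, no filter, DESeq2 and the fit of all libraries added PFKL. In the interaction, no filter gave 6 members with a lower response in place of 4, adding ALDOC and PFKFB4, where 2.76% of all genes passed downward. Leaving out a library gave 2 to 5 lower with ATRA in shNC, 7 to 12 lower in shKDM3B, and 1 to 11 past the interaction in either direction. KDM3B ranged from -1.84 to -1.13 under ATRA, where the call was lost without either shKDM3B+ATRA library, and with ATRA in shKDM3B from -0.64 to -0.42. The causes were not tested. Genes at a few counts, such as PFKFB2 and ENO2, are limited by depth.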
